A study of Mus musculus with 16 samples.

Results

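Aminoacyl tRNA synthetases join each amino acid to its tRNA before translation, and 35 of their genes were followed here through 16 RNA sequencing libraries of sorted mouse alveolar type 2 (AT2) cells, the surfactant-making cells of the lung. The 35 were found by symbol through the Entrez identifiers of the count table, which holds 27179 identifiers, and none was missing. They comprise 19 genes of the cytosolic enzymes (Aars1, Cars1, Eprs1, Farsa, Farsb, Gars1, Hars1, Iars1, Kars1, Lars1, Mars1, Nars1, Qars1, Rars1, Sars1, Tars1, Vars1, Wars1 and Yars1) and 16 of the mitochondrial enzymes (Aars2, Cars2, Ears2, Fars2, Hars2, Iars2, Lars2, Mars2, Nars2, Pars2, Rars2, Sars2, Tars2, Vars2, Wars2 and Yars2). All 35 passed the filter on low counts that left 15516 genes for testing, and the lowest count of any of them in any library was 21 (Pars2).

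Each of 8 mice gave a CD44+ and a CD44- fraction of cells gated as AT2, that is living cells that bore Epcam and much CD200 but neither CD104 nor the blood and vessel markers CD45 and CD31. The columns of the count table carry the prefixes OG and R26, with 4 animals each, and the groups are called OG CD44+, OG CD44-, R26 CD44+ and R26 CD44- here (n = 4 libraries each). The labels give genotypes SP-C Mutant and SP-C WT, 4 lungs each, for Sftpc, the surfactant protein C gene, in a study of AT2 cells in fibrosis, but tie neither prefix to a genotype. Reading OG as mutant and R26 as control is an inference that could be wrong. If it is, every OG against R26 difference and every difference between CD44 effects changes sign with respect to genotype, while the CD44 comparisons within a prefix stand. All 16 samples share the treatment text OG TMX, so whatever it stands for is common to every group; neither the mutation, the promoter behind any recombinase, nor the age of the mice is given in the sources used here. No label says that animals were pooled.

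The synthetases of the cytosol and of the mitochondrion are mostly encoded by separate nuclear genes, although Gars1 and Kars1 each supply both compartments. In the cytosol, a group of them including Eprs1, Iars1, Kars1, Lars1, Mars1, Qars1 and Rars1 is held together with the scaffold proteins encoded by Aimp1, Aimp2 and Eef1e1 in the multi-synthetase complex. Uncharged tRNA is sensed by the kinase GCN2 (Eif2ak4), which phosphorylates eIF2 alpha and thereby raises translation of the transcription factor ATF4. Many cytosolic synthetase genes are known ATF4 targets, together with genes of amino acid transport and synthesis, and ATF4 binds with C/EBP proteins at composite elements often written TGATGNAA.

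Library totals ran from 9022471 to 21363816 counts, and 3 counts, taken as the floor, came to at most 0.333 CPM. Levels are in CPM, counts relative to the TMM-scaled library size, unless said otherwise. A difference is given as a log2 fold change with its SE by the edgeR quasi-likelihood test, and was called at a Benjamini-Hochberg adjusted p under 0.05 over all tested genes. One unnamed identifier held 10.4% to 11.8% of the counts in OG CD44+ libraries and 4.98% to 7.44% in the other 12. Sftpc stood at 6696 ± 684 CPM in OG CD44+, 11684 ± 432 CPM in OG CD44-, 54364 ± 12252 CPM in R26 CD44+ and 79592 ± 7872 CPM in R26 CD44- libraries (SD, n = 4 each). The 10 AT2 markers were all detected and all lower in each comparison of 2 groups, against 15.4% to 34.6% of all tested genes. They summed to 21607 to 25870 CPM, 46895 to 50503 CPM, 108348 to 155865 CPM and 162317 to 191939 CPM in the same group order. B and plasma cell markers summed to 1403 to 3987 CPM in OG CD44+ and 1571 to 3804 CPM in R26 CD44+ libraries, against 73.0 to 142 CPM in OG CD44- and 9.49 to 27.0 CPM in R26 CD44- libraries. Fibroblast and mural markers summed to 1658 to 3003 CPM, 746 to 807 CPM, 737 to 1590 CPM and 107 to 142 CPM in OG CD44+, OG CD44-, R26 CD44+ and R26 CD44- libraries. Cycling markers summed to 91.1 to 107 CPM, 59.2 to 79.2 CPM, 79.4 to 230 CPM and 14.9 to 44.2 CPM in the same 4 groups. AT1 markers summed to 2462 to 2776 CPM, 2708 to 2942 CPM, 1503 to 1758 CPM and 1294 to 1494 CPM in that order. Ciliated cell markers likewise summed to 345 to 451 CPM, 176 to 182 CPM, 159 to 277 CPM and 107 to 117 CPM. All 6 AT1 and all 7 ciliated markers were higher in OG CD44- against R26 CD44- libraries, against 39.4% of all tested genes. Between the CD44+ fractions 4 AT1 markers were higher and 2 lower in OG, against 34.5% and 34.6% of all tested genes. Endothelial markers summed to 99.6 to 105 CPM, 168 to 177 CPM, 165 to 181 CPM and 124 to 141 CPM in the same order. Of the 6, 4 were lower in OG CD44+ against OG CD44- libraries, against 28.0% of all tested genes. In OG CD44+ against R26 CD44+ libraries 5 were lower, against 34.6%. Within R26, CD44+ against CD44-, 5 were higher and 1 lower, against 21.6% and 15.4%. In OG CD44- against R26 CD44- libraries 3 were higher, against 39.4%. Club and secretory cell markers summed to 1840 to 2534 CPM, 635 to 756 CPM, 1826 to 3315 CPM and 561 to 1179 CPM in that order. All 6 of them were higher in CD44+ than in CD44- libraries of each prefix, against 22.3% of all tested genes in OG and 21.6% in R26. The part of other cell types in the synthetase results was not tested, and in bulk libraries fewer cells of a type and less RNA per cell cannot be told apart.

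Promoter windows from 250 bases before to 50 bases after the start site (RefSeq, GRCm38.p6, the mm10 build) were at hand for 12 cytosolic and 14 mitochondrial synthetase genes. The composite element TGATGNAA, searched on both strands, occurred in 5 of the 12 cytosolic windows and 0 of the 14 mitochondrial ones, against 4.51% of 27025 genes. The 6 matches are shown because all lie in cytosolic windows and the motif played no part in choosing the members. Sequences run 5′ to 3′ along the gene's own strand, and capitals mark the match, which appears as its reverse complement where it lies on the other strand. The position of its first base is counted with the start site as +1.
Aars1, chr8:111033700-111033767, plus strand, match at -112: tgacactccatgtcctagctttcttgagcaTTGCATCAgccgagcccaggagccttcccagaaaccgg
Aars1, chr8:111033840-111033869, plus strand, match at +10: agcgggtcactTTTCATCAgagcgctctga
Gars1, chr6:55037941-55038000, plus strand, match at -30: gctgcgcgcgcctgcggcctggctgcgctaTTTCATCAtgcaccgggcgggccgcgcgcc
Tars1, chr15:11399659-11399703, minus strand, match at -15: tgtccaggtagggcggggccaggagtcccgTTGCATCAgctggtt
Iars1, chr13:49682126-49682155, plus strand, match at +8: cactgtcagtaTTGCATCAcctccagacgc
Yars1, chr4:129189895-129189924, plus strand, match at +4: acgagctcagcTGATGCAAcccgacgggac

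Of the other motifs searched on both strands, CCAAT occurred in 7 of the 12 cytosolic and 6 of the 14 mitochondrial windows, against 41.06% of genes. The E-box CACGTG occurred in 4 of the 12 cytosolic windows (Aars1, Farsb, Iars1 and Tars1) and 1 of the 14 mitochondrial ones (Ears2), against 8.09% of genes. No match to the composite element overlapped a match to either of these. A match is a description of letters only. No window was at hand for Cars1, Hars1, Lars1, Nars1, Rars1, Vars1, Wars1, Hars2 and Pars2.

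Cytosolic synthetase RNA was more abundant than mitochondrial synthetase RNA in every group, and the gap was wider in both OG groups. Per kilobase of exon, the median cytosolic member stood at 20.9 CPM per kb in OG CD44+, 27.5 in OG CD44-, 12.6 in R26 CD44+ and 11.7 in R26 CD44- libraries. The median mitochondrial member stood at 3.43, 4.47, 4.04 and 4.57 CPM per kb in the same order of groups. Qars1, the glutaminyl enzyme, had the highest level per kilobase in OG CD44+ (43.0 ± 3.31 CPM per kb, within its spread of Wars1 at 42.2 ± 2.46), R26 CD44+ (27.6 ± 3.41, within its spread of Vars1 at 26.7 ± 2.03) and R26 CD44- libraries (30.2 ± 2.92). In OG CD44- libraries the asparaginyl enzyme Nars1 was highest at 55.1 ± 2.35 CPM per kb, followed by Gars1, the glycyl enzyme, at 51.3 ± 0.812 CPM per kb (SD, n = 4). Mars2 and Pars2, which charge methionyl and prolyl tRNA in mitochondria, took places 34 and 35 in all 4 groups, at 0.753 to 1.43 CPM per kb. The place of Mars2 depends on the gene model. It was divided by 11294 exon bases, whereas its RefSeq gene spans chr1:55237177-55240058, which is shorter and would give a higher value. The mitochondrial medians above use the same length. The place of Aars1, at 44.1 ± 1.42 CPM per kb in OG CD44- libraries, depends on the gene model too. Of its 5750 exon bases 1326 are shared with another gene, Exosc6. With the same counts, a length without those bases would put Aars1 above Nars1 in that group. Vars2, the valyl enzyme, was the only mitochondrial member among the 4 highest in any group, at 19.1 ± 1.13 CPM per kb in R26 CD44+ and 21.7 ± 1.31 in R26 CD44- libraries.

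Summed over the class, the 19 cytosolic members reached 1592, 1584, 1571 and 1456 CPM in OG CD44+ libraries of animals 7, 6, 5 and 3, and 1968, 1992, 1978 and 1900 CPM in their OG CD44- libraries. They reached 869, 848, 897 and 873 CPM in R26 CD44+ libraries of animals 8, 7, 2 and 1, and 860, 858, 878 and 882 CPM in their R26 CD44- libraries. Every OG library lay above every R26 library, every OG CD44- library lay above every OG CD44+ library, and the R26 fractions overlapped. Without Lars2, which varied widely within groups, the mitochondrial members summed to 285 ± 11.4 CPM in OG CD44+, 344 ± 3.96 CPM in OG CD44-, 300 ± 10.9 CPM in R26 CD44+ and 331 ± 5.05 CPM in R26 CD44- libraries (SD, n = 4 each). The ratio of the sums was therefore 5.34 to 5.52 in OG CD44+, 5.50 to 5.87 in OG CD44-, 2.84 to 2.97 in R26 CD44+ and 2.60 to 2.65 in R26 CD44- libraries. With Lars2 included the ratio was 4.04 to 4.79, 4.41 to 5.14, 1.96 to 2.63 and 1.99 to 2.43 in the same order. The R26 fractions then overlapped, while every OG library still lay above every R26 library. These are descriptions of chosen members and carry no test.

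**Figure D1:**
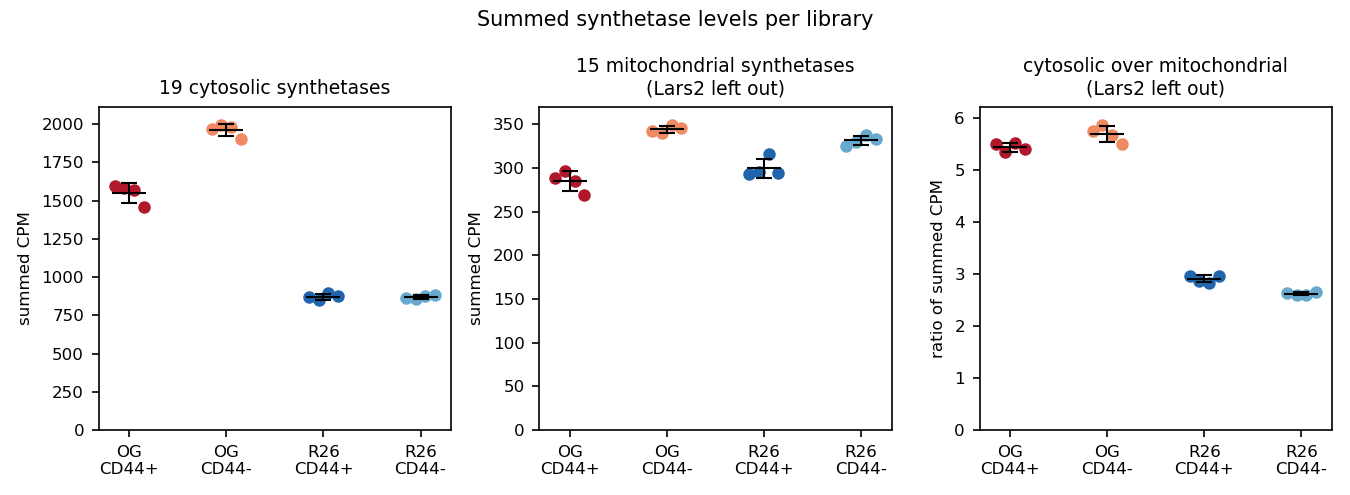
Summed CPM of the 19 cytosolic members (left), of 15 mitochondrial members without Lars2 (middle) and their ratio (right), with 1 point per library and bars for the mean ± SD (n = 4 per group). The cytosolic sum averaged 1551 CPM in OG CD44+, 1959 CPM in OG CD44-, 872 CPM in R26 CD44+ and 870 CPM in R26 CD44- libraries, while the mitochondrial sums lay between 269 and 349 CPM in all 16 libraries.

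Between OG CD44- and R26 CD44- cells, the comparison of the prefixes in the fraction with less CD44, all 19 cytosolic members rose and no library of either group overlapped for any of them. Across all tested genes 39.4% were called higher and 29.6% lower (69.0% in either direction). The share of all tested genes whose libraries did not overlap was not computed, so the count without overlap has no background. The median cytosolic log2 fold change was 1.04, against 0.12 over all tested genes, and members ranged between 0.29 for Qars1 and 1.69 for Rars1. Of the 16 mitochondrial members 7 rose, 3 fell and 6 were not called, with a median of 0.20.

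The smallest adjusted p-values among cytosolic members belonged to Eprs1, Aars1, Nars1 and Wars1. Eprs1, the fused glutamyl and prolyl enzyme of the multi-synthetase complex, had 238, 245, 237 and 231 CPM in OG CD44- libraries (animals 7, 6, 5 and 3) against 90.7, 90.9, 85.8 and 87.5 CPM in R26 CD44- libraries (animals 8, 7, 2 and 1). Aars1, the alanyl enzyme, had 249, 262, 259 and 244 CPM in OG CD44- against 80.5, 83.6, 83.1 and 85.7 CPM in R26 CD44- libraries. For both genes the lowest OG library was far above the highest R26 library. The log2 fold changes were 1.42 ± 0.04 for Eprs1 (edgeR adjusted p = 9.36e-19) and 1.61 ± 0.05 for Aars1 (edgeR adjusted p = 1.21e-18).

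Nars1 had 164, 169, 157 and 154 CPM in OG CD44- libraries against 51.2, 51.8, 49.7 and 52.5 CPM in R26 CD44- libraries. Wars1, the tryptophanyl enzyme and also a gene known to respond to interferon, had 134, 137, 135 and 129 CPM in OG CD44- against 47.4, 43.7, 47.2 and 49.9 CPM in R26 CD44- libraries. Each gene again showed no overlap, with log2 fold changes of 1.65 ± 0.06 for Nars1 (edgeR adjusted p = 4.39e-18) and 1.51 ± 0.06 for Wars1 (edgeR adjusted p = 2.42e-17). Rars1, the arginyl enzyme, had the largest fold change of the class at 1.69 ± 0.07, with 52.3, 57.6, 55.8 and 49.1 CPM in OG CD44- against 17.4, 17.9, 15.3 and 15.7 CPM in R26 CD44- libraries. At the other end stood Qars1, with 106, 102, 103 and 101 CPM in OG CD44- against 78.6, 82.6, 96.4 and 80.1 CPM in R26 CD44- libraries. Its difference of 0.29 ± 0.07 (edgeR adjusted p = 0.00172) was the only cytosolic call lost on leaving out a library: without R26 CD44- animal 8, 7 or 1 it was 0.15 to 0.17 (adjusted p 0.0695 to 0.105).

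The remaining cytosolic members filled the range between, at 1.56 for Cars1 (cysteinyl), 1.48 for Iars1 (isoleucyl), 1.44 for Sars1 (seryl), 1.23 for Mars1 (methionyl), 1.04 for Tars1 (threonyl) and 1.03 for Farsb, the beta subunit of the phenylalanyl enzyme. Its alpha subunit Farsa differed less, by 0.67. Gars1 and Kars1, the glycyl and lysyl enzymes that serve both compartments, differed by 0.94 ± 0.05 and 0.76 ± 0.07, below the class median. Yars1 (tyrosyl) stood at 0.94, Lars1 (leucyl) at 0.79, Vars1 (valyl) at 0.71 and Hars1 (histidyl) at 0.68. The 7 members in the multi-synthetase complex had a median of 1.23 and the other 12 a median of 1.04. The 5 members with a composite element in the promoter window had a median of 1.04, the 7 with a window and no match 1.03, and the 7 without a window 1.51.

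Among mitochondrial members, Ears2, Tars2 and Fars2 led the higher calls. Ears2, the glutamyl enzyme, had 8.13, 8.74, 8.44 and 8.13 CPM in OG CD44- libraries against 4.07, 3.22, 4.75 and 4.75 CPM in R26 CD44- libraries, a log2 fold change of 1.0 ± 0.15 (edgeR adjusted p = 2.59e-06). Tars2, the threonyl enzyme, had 32.6, 30.5, 31.1 and 31.4 CPM in OG CD44- against 24.2, 22.4, 24.0 and 23.3 CPM in R26 CD44- libraries (0.42 ± 0.07, edgeR adjusted p = 1.06e-05). Both were separated without overlap. Fars2, the phenylalanyl enzyme, had 23.3, 25.1, 24.4 and 23.9 CPM in OG CD44- against 17.1, 16.9, 18.2 and 15.4 CPM in R26 CD44- libraries (0.52 ± 0.10, edgeR adjusted p = 5.36e-05). Pars2 (0.78), Yars2 (0.55), Rars2 (0.37) and Iars2 (0.27) also rose. The Iars2 call was lost without R26 CD44- animal 8, 7 or 1 (0.14 to 0.15, adjusted p 0.06 to 0.0724) and that of Yars2 without R26 CD44- animal 8 (0.40, adjusted p = 0.0558).

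Cars2, Vars2 and Aars2 fell. Cars2, the mitochondrial cysteinyl enzyme, had 9.82, 9.68, 9.52 and 9.35 CPM in OG CD44- libraries against 24.4, 21.5, 26.3 and 22.5 CPM in R26 CD44- libraries. No other member of either class fell as far, at -1.30 ± 0.10 (edgeR adjusted p = 1.93e-11). Vars2 had 86.3, 81.2, 87.9 and 87.3 CPM in OG CD44- against 90.8, 100.4, 91.1 and 102 CPM in R26 CD44- libraries (-0.17 ± 0.06, edgeR adjusted p = 0.0166). Aars2, the alanyl enzyme, had 9.36, 9.23, 10.4 and 10.1 CPM in OG CD44- against 11.9, 11.9, 11.7 and 11.9 CPM in R26 CD44- libraries (-0.28 ± 0.10, edgeR adjusted p = 0.0185). The Vars2 and Aars2 groups did not overlap, but both calls were lost without OG CD44- animal 6 (-0.14 and -0.25, adjusted p = 0.0642 and 0.0586), leaving 1 lower call in the class, and when the filter on low counts was dropped. With DESeq2 size factors or an OG CD44- library as the TMM reference 7 members were lower, Hars2, Nars2, Sars2 and Wars2 being added. Leaving out R26 CD44- animal 8 or 7 gave 6 lower calls, and leaving out R26 CD44- animal 2 or 1 or R26 CD44+ animal 8, 7 or 2 gave 7; each of these refits also changed the scaling.

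**Figure D2:**
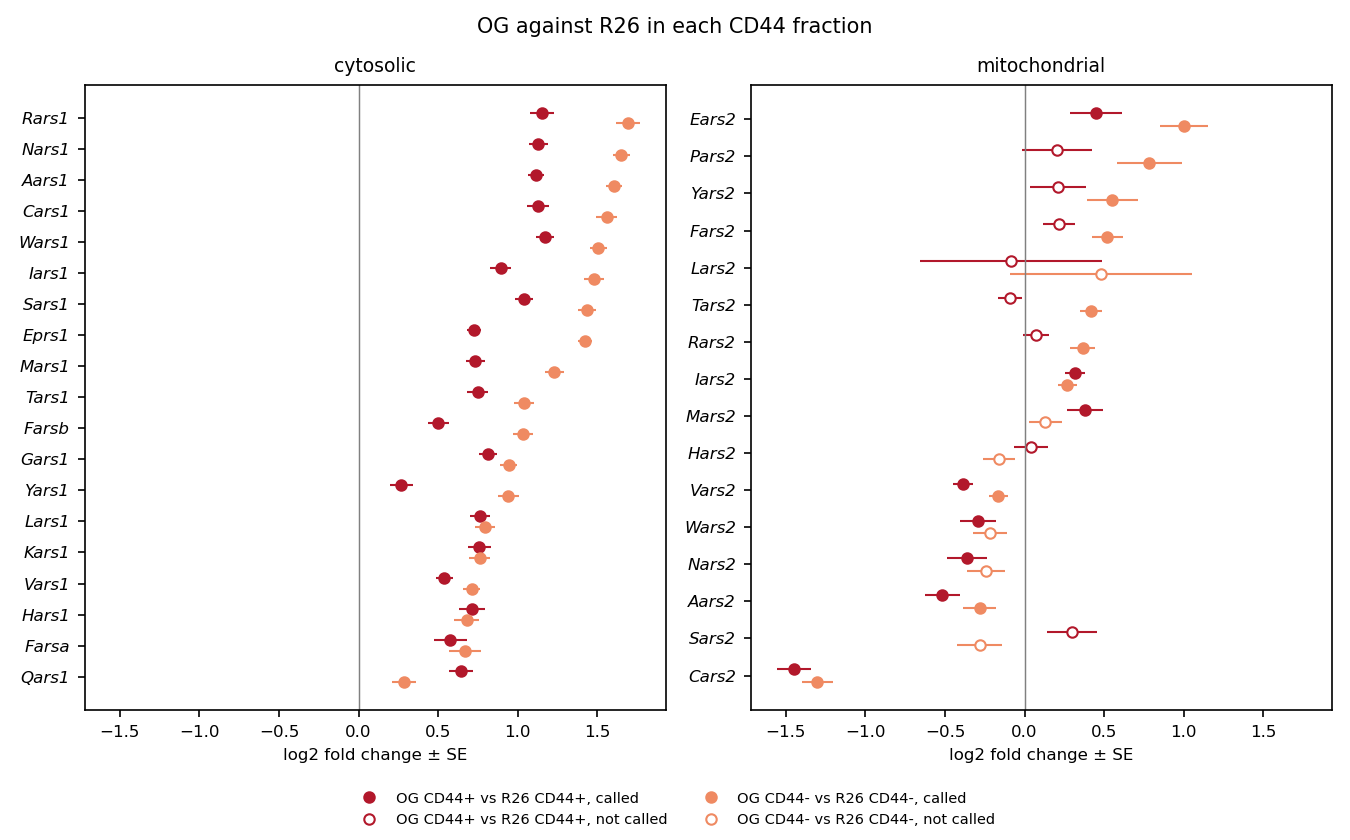
Log2 fold change ± SE of each member for OG against R26 in CD44+ cells (dark) and CD44- cells (light), with cytosolic members left and mitochondrial members right, ordered by the CD44- value. Filled points are called (edgeR adjusted p under 0.05) and open points are not; all 38 cytosolic points lie above 0, and Cars2 lies below -1 in both fractions.

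In CD44+ cells the same comparison of prefixes gave 19 of 19 cytosolic members higher in OG CD44+ than in R26 CD44+ libraries, with no overlap between libraries for any of them. Across all tested genes 34.5% were called higher and 34.6% lower (69.1% in either direction). Here too the share of all tested genes without overlap between libraries was not computed. The cytosolic median was 0.76, against -0.01 over all tested genes, with members between 0.27 (Yars1) and 1.17 (Wars1). Of the 16 mitochondrial members 3 rose, 5 fell and 8 were not called, with a median of 0.05.

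Aars1, Wars1, Nars1 and Sars1 had the smallest adjusted p-values. Aars1 had 180.0, 185, 176 and 163 CPM in OG CD44+ libraries against 77.5, 76.7, 88.1 and 83.2 CPM in R26 CD44+ libraries (1.11 ± 0.05, edgeR adjusted p = 2.16e-15). Wars1 had 123, 126, 125 and 111 CPM in OG CD44+ against 57.9, 50.9, 51.5 and 54.9 CPM in R26 CD44+ libraries (1.17 ± 0.06, edgeR adjusted p = 4.53e-15). In both, the lowest OG library, that of animal 3 in each case, still stood well above every R26 library. Nars1 had 117, 119, 115 and 101 CPM in OG CD44+ against 54.0, 48.1, 53.6 and 51.0 CPM in R26 CD44+ libraries (1.13 ± 0.06, edgeR adjusted p = 1.19e-14). Sars1, the seryl enzyme, had 122, 120.3, 119 and 113 CPM in OG CD44+ against 54.8, 58.3, 64.5 and 54.1 CPM in R26 CD44+ libraries (1.04 ± 0.06, edgeR adjusted p = 6.86e-14). Without both libraries of OG animal 3 all 19 cytosolic members were still called higher in each fraction.

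Rars1 (1.15), Cars1 (1.13), Iars1 (0.89), Gars1 (0.81 ± 0.05), Kars1 and Lars1 (0.76 each), Tars1 (0.75), Mars1 (0.73), Eprs1 (0.72) and Hars1 (0.71) followed. Lower in the order were Qars1 (0.64), Farsa (0.58), Vars1 (0.54) and Farsb (0.50). Yars1 came last, with 29.7, 33.5, 34.0 and 30.5 CPM in OG CD44+ libraries against 27.7, 24.7, 24.3 and 29.2 CPM in R26 CD44+ libraries. The closest libraries differed by less than 1 CPM, and the difference was 0.27 ± 0.07 (edgeR adjusted p = 0.00211). Members of the multi-synthetase complex had a median of 0.76 and the others 0.78. Those with the composite element, with a window and no match, and without a window had medians of 0.81, 0.72 and 1.13.

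Cars2 led the mitochondrial members that fell, with 7.59, 8.06, 5.66 and 6.99 CPM in OG CD44+ libraries against 20.4, 18.8, 19.7 and 18.2 CPM in R26 CD44+ libraries (-1.45 ± 0.11, edgeR adjusted p = 1.56e-11). Vars2 had 71.1, 64.4, 65.4 and 58.1 CPM in OG CD44+ against 79.7, 83.7, 91.7 and 83.8 CPM in R26 CD44+ libraries (-0.39 ± 0.06, edgeR adjusted p = 6.42e-06). Aars2 had 8.68, 8.72, 6.99 and 8.06 CPM in OG CD44+ against 12.2, 10.9, 10.5 and 12.7 CPM in R26 CD44+ libraries (-0.52 ± 0.11, edgeR adjusted p = 0.000205). All 3 were lower in every OG library, as they were in CD44- cells. Nars2 (-0.36, asparaginyl) and Wars2 (-0.29, tryptophanyl) also fell. The Nars2 call was lost without R26 CD44+ animal 7 (-0.24, adjusted p = 0.1) and the Wars2 call without R26 CD44+ animal 7 or 8 or OG CD44+ animal 7 or 5 (-0.28 to -0.22, adjusted p 0.0519 to 0.103). Both calls also ended with no filter on low counts or the 8 CD44+ libraries alone, and that of Wars2 with the other TMM reference. Without R26 CD44+ animal 7 the class thus had 3 lower calls instead of 5.

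Iars2, Mars2 and Ears2 rose. Iars2, the isoleucyl enzyme, had 72.0, 84.2, 79.2 and 76.1 CPM in OG CD44+ libraries against 61.8, 59.4, 71.1 and 58.0 CPM in R26 CD44+ libraries (0.32 ± 0.06, edgeR adjusted p = 0.000111). Mars2 had 12.4, 10.2, 11.7 and 9.86 CPM in OG CD44+ against 8.29, 9.15, 8.31 and 8.24 CPM in R26 CD44+ libraries (0.38 ± 0.11, edgeR adjusted p = 0.00394). Ears2 had 5.89, 5.32, 5.24 and 5.42 CPM in OG CD44+ against 3.11, 4.31, 4.75 and 3.93 CPM in R26 CD44+ libraries (0.45 ± 0.16, edgeR adjusted p = 0.0181). No libraries overlapped for these 3, and the Ears2 call was lost without R26 CD44+ animal 8 (0.35, adjusted p = 0.0611) and with the 8 CD44+ libraries alone. Of the other mitochondrial members, Sars2 (0.30), Fars2 (0.22), Yars2 (0.21), Pars2 (0.20), Rars2 (0.07), Hars2 (0.04) and Tars2 (-0.09) were not called. Without R26 CD44+ animal 2 there were 5 higher mitochondrial calls instead of 3.

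**Figure D3:**
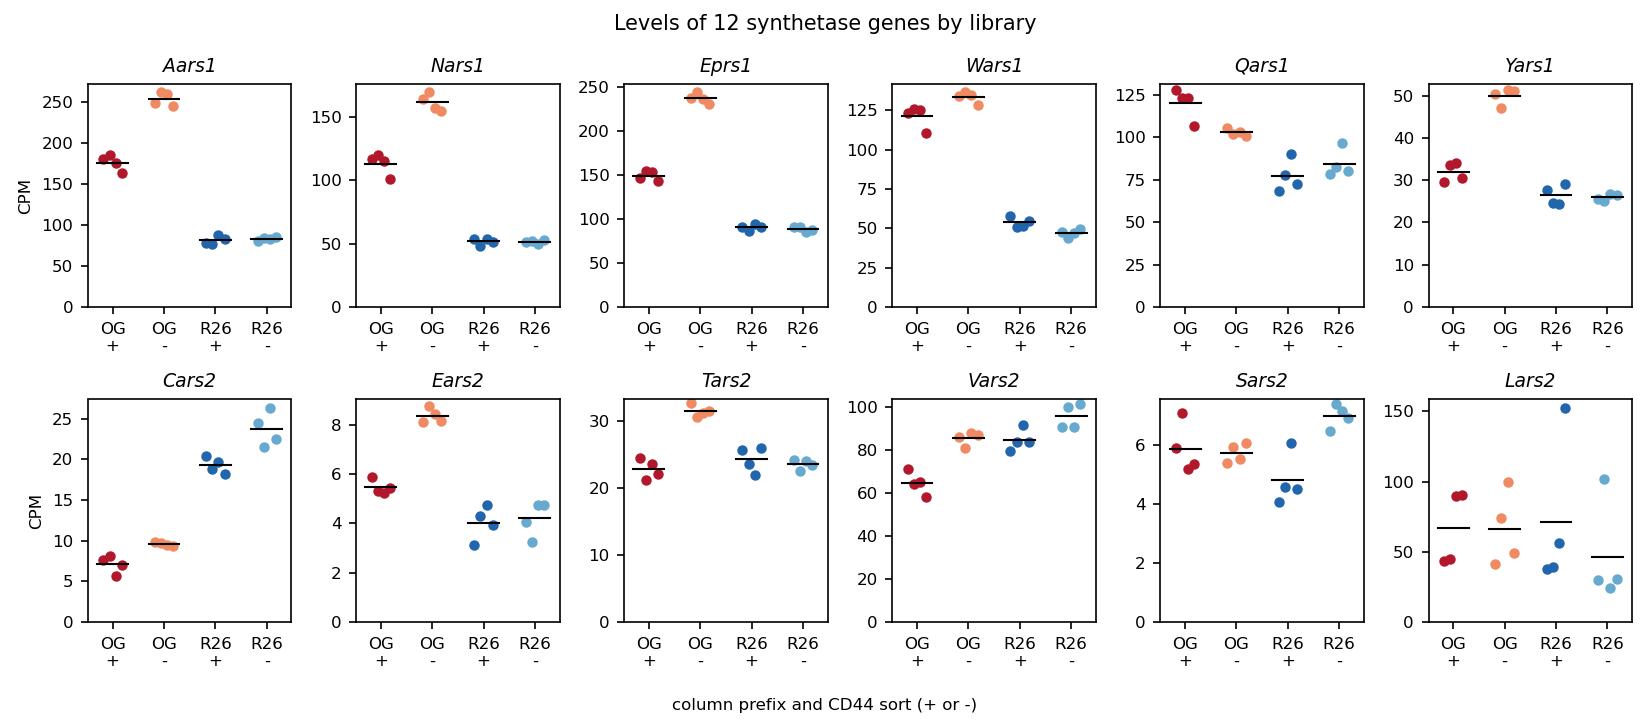
CPM of 6 cytosolic members (upper row) and 6 mitochondrial members (lower row) in every library, with groups in the order OG CD44+, OG CD44-, R26 CD44+ and R26 CD44- and a line at each mean (n = 4). Aars1 averaged 176, 253, 81.4 and 83.2 CPM in that order, Cars2 7.07, 9.59, 19.3 and 23.7 CPM, and Lars2 spread between 24.2 and 152 CPM.

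Set beside its mitochondrial counterpart, the cytosolic enzyme had the larger log2 fold change for each of 17 pairings, counting Eprs1 against both Ears2 and Pars2 and both phenylalanyl subunits against Fars2. This held in CD44- cells, where the median difference between partners was 0.88 (0.15 to 2.86), and in CD44+ cells, where it was 0.74 (0.06 to 2.58). The cysteinyl pair was farthest apart in both, with Cars1 at 1.56 and Cars2 at -1.30 in CD44- cells and at 1.13 and -1.45 in CD44+ cells. The closest pair was Farsa and Fars2 in CD44- cells (0.67 and 0.52), and Yars1 and Yars2 in CD44+ cells (0.27 and 0.21). These differences are a description of values and were not tested.

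**Figure D4:**
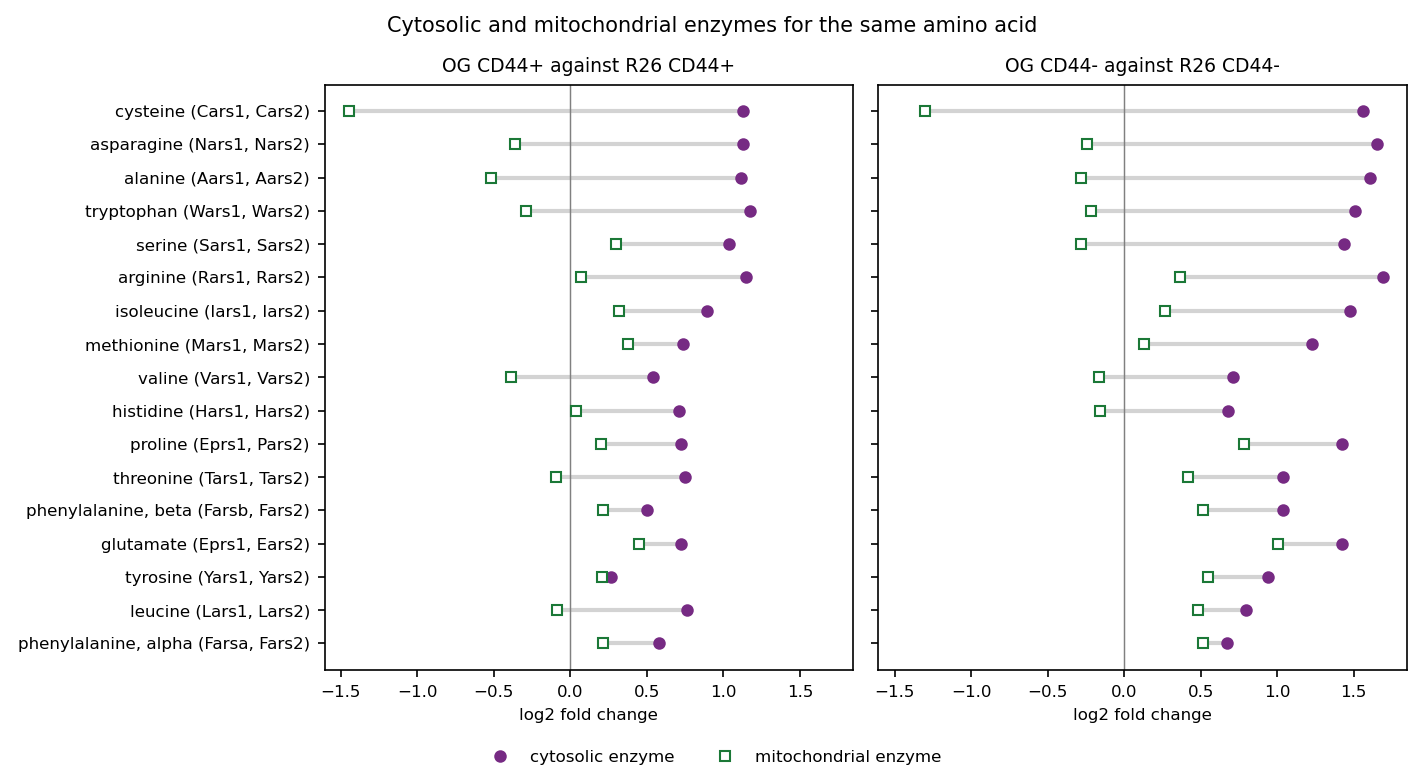
Log2 fold change of the cytosolic enzyme (filled circle) and the mitochondrial enzyme (open square) for the same amino acid, OG against R26, in CD44+ cells (left) and CD44- cells (right). The circle lies to the right of the square in all 17 rows of both panels.

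Within the OG prefix, the question of how CD44+ cells differ from CD44- cells of the same lungs gave 13 cytosolic members lower, 1 higher and 5 not called. Of all tested genes, 28.0% were called lower and 22.3% higher (50.4% in either direction). With an OG CD44- library as the TMM reference 53.1% of all calls were higher instead of 44.3%, and 12 cytosolic members were lower and 1 higher, and 6 mitochondrial members lower. The cytosolic median was -0.39 and the mitochondrial median -0.31, against -0.06 over all tested genes. Of the mitochondrial members 8 fell and 8 were not called.

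Eprs1 had 147, 154, 154 and 144 CPM in OG CD44+ libraries against 238, 245, 237 and 231 CPM in OG CD44- libraries (-0.67 ± 0.04, edgeR adjusted p = 1.57e-11). Aars1, with the values already given for both fractions, differed by -0.53 ± 0.05 (edgeR adjusted p = 6.23e-09). Sars1 had 122, 120.3, 119 and 113 CPM in OG CD44+ against 175, 175, 175 and 166 CPM in OG CD44- libraries (-0.54 ± 0.05, edgeR adjusted p = 1.75e-08). Nars1 differed by -0.51 ± 0.05 (edgeR adjusted p = 3.57e-08). In each of the 4 genes every CD44+ library lay below every CD44- library, yet above every R26 library of either fraction.

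Yars1 (-0.64), Iars1 (-0.53), Farsb (-0.49), Cars1 (-0.42), Mars1 and Tars1 (-0.39 each), Gars1 (-0.37 ± 0.05), Rars1 (-0.34) and Wars1 (-0.14) also fell. The Wars1 call was lost in 11 of the 16 fits that left out 1 library (-0.14 to -0.09, adjusted p 0.0595 to 0.155). Those 11 left out any 1 R26 CD44- library, R26 CD44+ animal 8, 7 or 2, OG CD44- animal 7, 6 or 5, or OG CD44+ animal 3. It was also lost at a minimum of 50 counts in 4 libraries, with the 8 OG libraries alone, without both libraries of OG animal 3 and with an OG CD44- library as the TMM reference. Hars1 (-0.17), Farsa (-0.08), Kars1 (-0.04 ± 0.07), Lars1 (0.00) and Vars1 (0.04) were not called, though Hars1 was with the animal as a block (edgeR adjusted p = 0.0444). Qars1 went the other way, with 128, 123, 123 and 107 CPM in OG CD44+ libraries against 106, 102, 103 and 101 CPM in OG CD44- libraries. Its groups stood apart by a narrow margin, at 0.23 ± 0.07 (edgeR adjusted p = 0.0136). All 5 members with the composite element fell, against 4 of the 7 with a window and no match and 4 of the 7 without a window.

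Vars2 had 71.1, 64.4, 65.4 and 58.1 CPM in OG CD44+ libraries against 86.3, 81.2, 87.9 and 87.3 CPM in OG CD44- libraries (-0.40 ± 0.06, edgeR adjusted p = 7.15e-06). Tars2 had 24.4, 21.2, 23.6 and 22.0 CPM in OG CD44+ against 32.6, 30.5, 31.1 and 31.4 CPM in OG CD44- libraries (-0.46 ± 0.07, edgeR adjusted p = 8.25e-06). Rars2, the arginyl enzyme, had 17.04, 17.4, 17.1 and 17.3 CPM in OG CD44+ against 22.0, 22.5, 22.7 and 20.8 CPM in OG CD44- libraries (-0.35 ± 0.08, edgeR adjusted p = 0.000559). The libraries of these 3 genes did not overlap. Ears2 (-0.61), Yars2 (-0.48), Cars2 (-0.44), Nars2 (-0.35) and Aars2 (-0.27) fell as well. Calls were lost for Aars2 in 11 of the 16 fits without 1 library (-0.27 to -0.20, adjusted p 0.0677 to 0.144; any R26 CD44- library, R26 CD44+ animal 8, 7 or 2, and animal 5 or 3 of either OG fraction), for Nars2 in 5 (-0.31 to -0.30, adjusted p 0.0529 to 0.071; any R26 CD44- library or OG CD44- animal 6) and for Yars2 in 2 (-0.43 in both, adjusted p = 0.0529 and 0.0534; either library of OG animal 7). With the animal as a block the edgeR adjusted p was 0.0591 for Aars2 and 0.0205 for Fars2, which was not called without the block. The Aars2 call also ended with DESeq2, with either other count filter and with the other TMM reference, and that of Nars2 ended with that reference and without both libraries of OG animal 3.

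**Figure D5:**
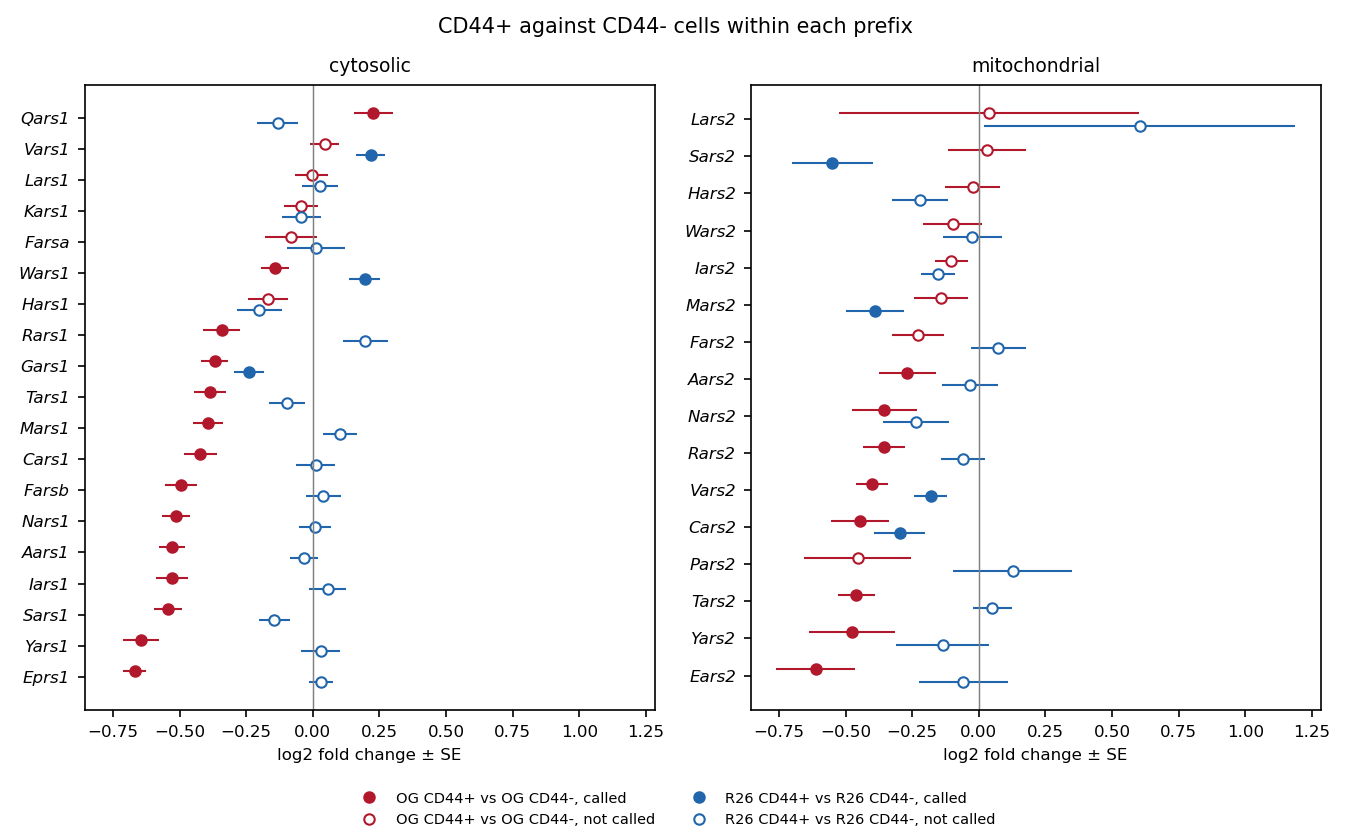
Log2 fold change ± SE of each member for CD44+ against CD44- cells in OG (red) and R26 libraries (blue), with cytosolic members left and mitochondrial members right, ordered by the OG value. Filled points are called (edgeR adjusted p under 0.05). Among cytosolic members 14 are called in OG and 3 in R26, against 50.4% and 37.1% of all tested genes.

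Within the R26 prefix, CD44+ against CD44- cells, 3 of the 19 cytosolic members were called, and 4 of the 16 mitochondrial members, all lower. Across all tested genes 21.6% were called higher and 15.4% lower (37.1% in either direction). The medians were 0.01 for cytosolic and -0.10 for mitochondrial members, against -0.02 over all tested genes. Direction in this comparison depends on scaling: 58.4% of all calls were higher as scaled here, 48.0% with DESeq2 size factors and 38.2% with an OG CD44- library as the TMM reference, and the cytosolic median was then -0.03 and -0.09.

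Vars1 had 102, 114, 106 and 121 CPM in R26 CD44+ libraries against 88.1, 97.4, 94.4 and 101 CPM in R26 CD44- libraries (0.22 ± 0.06, edgeR adjusted p = 0.00301). Wars1 had 57.9, 50.9, 51.5 and 54.9 CPM in R26 CD44+ against 47.4, 43.7, 47.2 and 49.9 CPM in R26 CD44- libraries (0.20 ± 0.06, edgeR adjusted p = 0.0103). The groups of both were separated by about 1 CPM, and both calls ended with the other TMM reference. The Vars1 call was also lost without R26 CD44- animal 8 or 2 or R26 CD44+ animal 7 (0.11 to 0.14, adjusted p 0.0565 to 0.101), and the Wars1 call without R26 CD44- animal 8, 7 or 2 or R26 CD44+ animal 8 (0.09 to 0.13, adjusted p 0.0887 to 0.231). Gars1 fell, with 59.4, 52.8, 53.2 and 50.2 CPM in R26 CD44+ libraries against 62.5, 62.6, 65.4 and 64.1 CPM in R26 CD44- libraries (-0.24 ± 0.06, edgeR adjusted p = 0.00132). With the other TMM reference 6 cytosolic members were lower, and with 1 library left out 4 were lower without any R26 CD44- library or R26 CD44+ animal 8 or 7, and 5 without R26 CD44+ animal 2. Higher cytosolic calls numbered 0 without R26 CD44- animal 8 or 2. With the animal as a block 3 cytosolic members were lower, Qars1 (-0.13, edgeR adjusted p = 0.0271) and Sars1 (-0.14, edgeR adjusted p = 0.0268) being added. The other 16 cytosolic members lay between -0.20 (Hars1) and 0.20 (Rars1) and were not called without the block.

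Among mitochondrial members, Sars2, the seryl enzyme, had 4.05, 4.58, 6.06 and 4.49 CPM in R26 CD44+ libraries against 6.46, 7.37, 7.16 and 6.92 CPM in R26 CD44- libraries (-0.55 ± 0.15, edgeR adjusted p = 0.00598). Mars2 had 8.29, 9.15, 8.31 and 8.24 CPM in R26 CD44+ against 10.7, 12.4, 10.6 and 10.9 CPM in R26 CD44- libraries (-0.39 ± 0.11, edgeR adjusted p = 0.0067). Cars2 had 20.4, 18.8, 19.7 and 18.2 CPM in R26 CD44+ against 24.4, 21.5, 26.3 and 22.5 CPM in R26 CD44- libraries (-0.30 ± 0.09, edgeR adjusted p = 0.0157). Each of the 3 was lower in every CD44+ library. Vars2 fell by 0.18 on the log2 scale (SE 0.06, edgeR adjusted p = 0.0208) with overlapping libraries, a call lost at a minimum of 50 counts in 4 libraries or with the 8 R26 libraries alone. With the animal as a block Iars2 was lower too (-0.15, edgeR adjusted p = 0.0159). Without R26 CD44+ animal 7 the class had 7 lower calls.

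The difference between the CD44 effects, that in OG minus that in R26, was tested as an interaction. It was negative and called for 12 cytosolic members, positive for Qars1, and called for 2 mitochondrial members, Tars2 (negative) and Sars2 (positive). Of all tested genes 18.1% had a negative and 6.57% a positive interaction call (24.7% in either direction). The medians were -0.40 for cytosolic and -0.23 for mitochondrial members, against -0.10 over all tested genes. With the OG CD44- TMM reference the median of all tested genes moved by 0.15, the share of positive calls among all calls was 58.3% instead of 26.6% (39.1% with DESeq2 size factors), and the medians became -0.24 and -0.07.

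For Eprs1 the CD44 effect was -0.67 in OG against 0.03 in R26 (interaction -0.70 ± 0.06, edgeR adjusted p = 2.29e-08). For Aars1 it was -0.53 in OG against -0.03 in R26 (interaction -0.49 ± 0.07, edgeR adjusted p = 1.68e-05). For Yars1 it was -0.64 in OG against 0.03 in R26 (interaction -0.67 ± 0.10, edgeR adjusted p = 2.03e-05), with 29.7, 33.5, 34.0 and 30.5 CPM in OG CD44+, 50.4, 47.0, 51.3 and 51.1 CPM in OG CD44-, 27.7, 24.7, 24.3 and 29.2 CPM in R26 CD44+ and 25.6, 25.1, 26.8 and 26.5 CPM in R26 CD44- libraries. For Nars1 it was -0.51 in OG against 0.01 in R26 (interaction -0.52 ± 0.08, edgeR adjusted p = 3.15e-05). By their means all 4 genes were highest in OG CD44- cells, next in OG CD44+ cells, and lower in the R26 fractions, whose libraries overlapped. Iars1 (-0.58), Rars1 (-0.54), Farsb (-0.53), Mars1 (-0.49), Cars1 (-0.43), Sars1 (-0.40), Wars1 (-0.34) and Tars1 (-0.29) completed the negative calls. That of Tars1 was lost without any 1 R26 CD44- library or R26 CD44+ animal 8, 7 or 2 (-0.21 to -0.12, adjusted p 0.116 to 0.394), with DESeq2 (adjusted p = 0.0913) and with the OG CD44- TMM reference. That of Wars1 was lost without R26 CD44- animal 7 or 2 or R26 CD44+ animal 8 (-0.21 to -0.18, adjusted p 0.0582 to 0.0898) and with that reference. Gars1 (-0.13 ± 0.08), Kars1 (0.00 ± 0.10), Farsa, Hars1, Lars1 and Vars1 were not called; with the animal as a block Vars1 was (-0.17, edgeR adjusted p = 0.0256).

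Qars1 had the opposite sign, with a CD44 effect of 0.23 in OG against -0.13 in R26 (interaction 0.36 ± 0.11, edgeR adjusted p = 0.0166). Tars2 had -0.46 in OG against 0.05 in R26 (interaction -0.51 ± 0.10, edgeR adjusted p = 0.000621). Sars2, at 5.17 to 7.06 CPM in OG CD44+, 5.40 to 6.06 CPM in OG CD44-, 4.05 to 6.06 CPM in R26 CD44+ and 6.46 to 7.37 CPM in R26 CD44- libraries, had 0.03 in OG against -0.55 in R26 (interaction 0.58 ± 0.21, edgeR adjusted p = 0.0468). Its R26 CD44- libraries overlapped with 1 other library, that of OG CD44+ animal 6. This call was lost in 7 of the 16 fits without 1 library (0.48 to 0.61, adjusted p 0.0574 to 0.114), namely without any OG CD44- library, OG CD44+ animal 7 or 6, or R26 CD44+ animal 1. Without R26 CD44+ animal 8 or 2 there were 2 positive mitochondrial interaction calls, and without R26 CD44+ animal 1 or OG CD44+ animal 7 there were 2 negative ones. The Sars2 call also ended with no filter on low counts and without the unnamed identifier, and with the animal as a block Vars2 was a further negative call (-0.22, edgeR adjusted p = 0.0206).

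Lars2, the mitochondrial leucyl enzyme, was called in none of the 5 comparisons by edgeR (adjusted p 0.457 to 0.964), and its libraries spread more widely than those of any other member named here. It had 43.4, 44.9, 89.6 and 90.6 CPM in OG CD44+ libraries, 41.2, 74.0, 99.7 and 48.9 CPM in OG CD44-, 37.8, 39.0, 56.2 and 152 CPM in R26 CD44+ and 29.8, 101, 24.2 and 30.3 CPM in R26 CD44- libraries. The high libraries belonged to different animals in the 2 fractions of R26, animal 1 in CD44+ and animal 7 in CD44-. The SE of its log2 fold changes was 0.56 to 0.58 in the 4 comparisons of 2 groups.

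Some members share exon bases with other genes, and the counting setting for strand is not given in the sources used here. Aars1 shares 23.1% of its exon bases with Exosc6 on the same strand, and Exosc6, an exosome subunit gene, was 0.53 ± 0.19 higher in OG CD44- and 0.83 ± 0.20 higher in OG CD44+ than in the R26 fractions on the log2 scale. Iars2 shares 30.5% with Rab3gap2 on the opposite strand, which stood at 0.38 ± 0.06 in CD44- and 0.09 ± 0.06 in CD44+ cells for OG against R26. Farsb shares 11.3% with Sgpp2 on the opposite strand, which fell by 1.35 in CD44- and by 2.23 in CD44+ cells on the log2 scale. Ears2 shares 4.35% with Ubfd1 on the opposite strand, which had 97.4 to 104 CPM in OG CD44- libraries, against 8.13 to 8.74 CPM for Ears2. For OG against R26, Ubfd1 rose by 1.05 ± 0.06 in CD44- and by 0.86 ± 0.06 in CD44+ cells. Hars1 and Hars2 share 195 bases at their opposed starts, and Iars1 has a processed pseudogene, Gm4849, identical at 96.0% over 1656 bases. The part of these overlaps in the counts of the members was not tested.

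Of 14 partner genes of the synthetases, 7 were higher and 3 lower in OG CD44- against R26 CD44- libraries (median 0.27), and 6 higher and 3 lower in OG CD44+ against R26 CD44+ libraries (median 0.24). These shares were near the background over all tested genes, of which 39.4% were higher and 29.6% lower between the CD44- fractions, and 34.5% higher and 34.6% lower between the CD44+ fractions. The complex scaffold genes Eef1e1 (1.26 ± 0.12, edgeR adjusted p = 1.03e-09) and Aimp2 (0.92 ± 0.10, edgeR adjusted p = 1.88e-08) rose in OG CD44- against R26 CD44- libraries. Tars3, a second cytosolic threonyl enzyme, fell in OG CD44- against R26 CD44- libraries (-0.62 ± 0.12, edgeR adjusted p = 7.6e-05) and again in CD44+ cells (-0.62 ± 0.13, edgeR adjusted p = 0.000229). Within OG, CD44+ against CD44-, 6 partners fell and 8 were not called (median -0.20). Gatb, of the complex that forms mitochondrial glutaminyl tRNA by amidation, had the smallest adjusted p (-0.54 ± 0.13, edgeR adjusted p = 0.00107). Within R26, 2 of 14 fell, near the 15.4% of all tested genes; within OG it was 28.0% of all.

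Of 34 tested genes on a list of amino acid supply and ATF4 response, 26 were higher and 8 lower in OG CD44- against R26 CD44- libraries, with a median of 1.49, against 39.4% higher and 29.6% lower of all tested genes. Slc7a11, the cystine transporter subunit, had 603, 617, 626 and 542 CPM in OG CD44- libraries against 1.03, 1.12, 0.500 and 1.21 CPM in R26 CD44- libraries (9.24 ± 0.13, edgeR adjusted p = 4.94e-22). Slc7a1, a transporter of cationic amino acids, rose by 2.83 ± 0.06, Mthfd2, of mitochondrial one-carbon metabolism, by 5.37 ± 0.13, and Asns, the asparagine synthetase, by 3.14 ± 0.09. In CD44+ cells 24 rose and 7 fell (median 0.95), against 34.5% and 34.6% of all tested genes. Slc1a5, a neutral amino acid transporter, was among those that fell, at 75.3 to 80.01 CPM in OG CD44+ against 149.5 to 156 CPM in R26 CD44+ libraries (-0.98 ± 0.04, edgeR adjusted p = 1.33e-15). Within OG, CD44+ against CD44-, 4 rose and 21 fell (median -0.42), against 22.3% and 28.0% of all tested genes. Slc3a2, the heavy chain that pairs with Slc7a11, fell by 0.69 (SE 0.04, edgeR adjusted p = 1.12e-11), whereas Ddit4, an inhibitor of mTORC1 signalling, rose by 0.80 ± 0.07. Within R26, 14 rose and 7 fell (median 0.22), against 21.6% and 15.4% of all tested genes. An interaction call was negative for 25 of the 34 and positive for 1 (median -0.67), against 18.1% and 6.57% of all tested genes. In both comparisons the direction of calls over all tested genes depended on scaling, as given above.

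Of 12 genes of the eIF2 kinases, the GCN2 pathway and eIF2B, 9 rose and 2 fell in OG CD44- against R26 CD44- libraries (median 0.59), and 6 rose and 3 fell in CD44+ cells (median 0.35), where all tested genes gave 39.4% higher and 29.6% lower between the CD44- fractions, and 34.5% higher and 34.6% lower between the CD44+ fractions. Impact, an inhibitor of GCN2, rose to 94.4 to 101 CPM in OG CD44- libraries, against 28.3 to 30.9 CPM in R26 CD44- libraries (1.74 ± 0.06, edgeR adjusted p = 1.56e-17). Eif2ak4, which encodes GCN2 itself, fell to 29.9 to 34.3 CPM in OG CD44- libraries, against 73.0 to 80.1 CPM in R26 CD44- libraries (-1.24 ± 0.07, edgeR adjusted p = 1.28e-13), and likewise in CD44+ cells (-1.49 ± 0.08, edgeR adjusted p = 1.29e-14). Eif2s1, the eIF2 alpha subunit, rose by 1.12 ± 0.07 and 1.04 ± 0.08 in CD44- and CD44+ cells. Within OG, CD44+ against CD44-, 5 of the 12 fell and 1 rose, and within R26 1 fell, against 28.0% and 15.4% of all tested genes that fell. Impact and Eif2b4, 2 of the 12, had negative interaction calls, a share near the 18.1% of all tested genes.

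Of 8 cytosolic elongation and termination factor genes, 6 rose in OG CD44- and 7 in OG CD44+ against the R26 fractions (medians 0.50 and 0.54), against 39.4% and 34.5% of all tested genes. Etf1, the release factor, rose by 0.64 ± 0.05 in CD44- and 0.63 ± 0.05 in CD44+ cells. Between the CD44 fractions 4 of the 8 fell within R26, against 15.4% of all tested genes. The libraries of the 2 fractions overlapped for every one of them, and direction in that comparison depends on scaling, as given above. Of 10 mitochondrial translation factor genes, 4 rose and 1 fell in OG CD44- against R26 CD44- libraries (median 0.15), and 5 rose and 2 fell in CD44+ cells (median 0.17), against 39.4% and 34.5% of all tested genes that rose; the first share is near the background. Gfm1, a mitochondrial elongation factor, stood at 61.7 to 65.6 CPM in OG CD44- against 24.3 to 26.4 CPM in R26 CD44- libraries (1.34 ± 0.08, edgeR adjusted p = 1.5e-13), and Tufm, the mitochondrial EF-Tu, rose by 0.95 ± 0.11 and 0.99 ± 0.12 in CD44- and CD44+ cells. Within OG 3 of the 10 fell with CD44 and within R26 2 fell, near the 28.0% and 15.4% of all tested genes.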

How the data were processed

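The deposited values are raw counts per gene, whole numbers that the authors did not normalize. The kit kept strand and removed ribosomal RNA, per the labels' protocols, and the submitters' processing notes name Bowtie2 as a tool and mm10 as the build; the Bowtie2 version, counting program and strand setting are not given in the sources used here. The 35 synthetase genes and the lists were chosen with earlier results of these data known. Symbols were matched for 93.0% of identifiers, and prefixes and animals were read from the column names. Tests used R 4.3.3 and edgeR 4.0.16 (filterByExpr, TMM, robust quasi-likelihood F test, 1 mean per group over all 16 libraries, Benjamini-Hochberg over 15516 genes); the SE is the log2 fold change divided by the square root of F. CPM are TMM-scaled. Alternatives were DESeq2 1.42.0 and its size factors, other count filters, only the 8 libraries compared, the animal as a block, another TMM reference, and libraries left out. Named members had the smallest adjusted p per class and comparison (up to 4 cytosolic and 3 mitochondrial), plus called members of the opposite direction, and from other lists up to 4. Further members appear with their fold changes only, and Rars1, Yars1 and Lars2, in comparisons where that rule does not take them, were given library values after these were seen. Counting intervals and floors cover counting error only. Exon lengths and overlaps are from GENCODE M21 (GRCm38), near copies from BLAST+ 2.17.0. Both libraries of an animal share that animal; the correlation of their deviations from the group means was 0.13 to 0.24 for the 4 R26 animals and 0.02 to 0.10 for the 4 OG animals. The test code was checked on simulated counts.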

Additional observations from a re-analysis of the deposited data

Results flagged for a closer look

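In groups of 4, the library farthest from the others was marked where its gap to the nearest exceeded Dixon's 95% critical value, which chance does in about 1 in 20 groups; 10 of 140 groups of members were marked. The high libraries were Lars1 in OG CD44- animal 5 (69.8 CPM), Rars1 (21.4 CPM) and Fars2 (21.6 CPM) in R26 CD44+ animal 2, Mars2 in R26 CD44+ animal 7 (9.15 CPM), Lars2 in R26 CD44+ animal 1 (152 CPM) and Lars2 in R26 CD44- animal 7 (101 CPM). The low ones were Iars1 in R26 CD44- animal 7 (25.0 CPM), Sars1 in OG CD44- animal 3 (166 CPM), Aars2 in R26 CD44- animal 2 (11.7 CPM) and Nars2 in OG CD44+ animal 6 (6.07 CPM).

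The CD44 effect differed between OG and R26 by the interaction test for 15 members. Of all tested genes 24.7% had such a call, 18.1% negative and 6.57% positive. The difference, OG minus R26 in log2, was -0.70 for Eprs1, -0.67 for Yars1, -0.58 for Iars1, -0.54 for Rars1, -0.53 for Farsb, -0.52 for Nars1, -0.51 for Tars2, -0.49 for Aars1 and for Mars1, -0.43 for Cars1, -0.40 for Sars1, -0.34 for Wars1 and -0.29 for Tars1. It was 0.36 for Qars1 and 0.58 for Sars2. The calls of Tars1, Wars1 and Sars2 were lost in 7, 3 and 7 of the 16 fits that left out 1 library.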

How the results depend on the processing

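No member reversed in a called comparison under any alternative. The 19 higher cytosolic calls of OG against R26 stood under every setting in CD44+ cells (19 with any library left out) and at 18 to 19 with a library left out in CD44- cells. Only the 8 libraries compared gave 2 higher cytosolic calls in OG CD44+ against OG CD44-, 7 lower mitochondrial calls in OG CD44- against R26 CD44- and 3 in OG CD44+ against R26 CD44+. Those lower mitochondrial calls in CD44- cells (3 as reported) were 7 with DESeq2 size factors or the OG CD44- TMM reference, 6 with the DESeq2 Wald test or at least 50 counts in 4 libraries, and 1 with no filter; in CD44+ cells they were 3 with no filter. For R26 CD44+ against R26 CD44-, lower cytosolic calls (1 as reported) were 3 with DESeq2 size factors or Wald test, 2 without both libraries of OG animal 3 and 6 with the other TMM reference, which gave 0 higher cytosolic and 7 lower mitochondrial calls, 5 higher mitochondrial calls in OG CD44+ against R26 CD44+, and 2 positive mitochondrial interaction calls; with no filter, or without the unnamed identifier, positive ones were 0, and without that identifier negative ones were 2. With 1 library left out, R26 CD44+ against R26 CD44- had 0 to 2 higher and 1 to 5 lower cytosolic and 4 to 7 lower mitochondrial calls, OG CD44- against R26 CD44- 1 to 7 lower mitochondrial calls, OG CD44+ against R26 CD44+ 2 to 5 higher and 3 to 5 lower ones, and the interaction 0 to 2 positive and 1 to 2 negative ones. With the animal as a replicate block, 3 cytosolic members were lower in R26 CD44+ against R26 CD44-, 2 mitochondrial members had a negative interaction call, and 13 cytosolic ones did; OG against R26 compares different animals and has no block. The alternatives without animal 3, with the other TMM reference and without the identifier were chosen after seeing the data. The causes of these changes were not tested. The lowest count of a member in a library was 21.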
